A study of Mus musculus with 40 samples.

Results

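The DARLIN mouse carries a transgenic array of 10 Cas9 target sites, and the edited sequence that a cell's array is left with marks its descendants. Clean joins between inner targets are deletions, listed with no inserted base, that run from one of target sites 2 to 9 to another of them and leave sites 1 and 10 outside. They were chosen from the deposited allele list by 3 criteria: the event is a deletion without inserted bases, it touches the cut windows of 2 or more targets, and all of these lie among sites 2 to 9. The window of a site is the last 7 bases of its 20-base target, bases 19 to 25 of the array for site 1 and a further 27 bases, one repeat unit, for each next site. By this rule 4098 of 42668 listed events were members (9.60%, 95% exact binomial interval 9.33 to 9.89%). They made up 29.6% of the 13856 clean deletions and were held by 3804 of 12767 alleles, an allele being one distinct edited array.

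Lineage marks were read from lobes of mouse livers, and the labels describe 40 samples from 5 animals, of which 16 are marked E15.5, 10 E12 and 14 E10. Whether that mark is the stage of induction or of collection is not stated, and neither are full genotype, sex and age. Only the right inferior lobe of animal YK184, with the mark E15.5, was analysed. No allele list of another sample was among the sources used here. The array RNA from the Col1a1 locus was reverse transcribed with a primer carrying a unique molecular identifier (UMI), so that UMIs count RNA molecules rather than cells. Col1a1, which encodes a chain of type I collagen, lies on chromosome 11, bases 94936224 to 94953042 of GRCm38.p6. Where the array lies relative to the exons and introns of the gene is not stated in the labels. The library listed 32342 UMIs. The number of sequencing reads is unknown. With 1 library there were no replicates and no test between conditions. All intervals below are 95% exact binomial intervals and treat listed events or alleles as independent draws, so they cover counting error in this library only.

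Cas9 cuts DNA 3 bases inside the end of its target, next to the short PAM motif. When 2 targets of one array are cut at the same time, the stretch between them can be lost and the outer ends joined by the cell's end-joining repair. Repair can also chew ends back before joining them, which moves the ends of the deletion away from the cuts. The nuclease of DARLIN mice is a fusion of Cas9 with terminal deoxynucleotidyl transferase, which lengthens free DNA ends with bases not copied from a template, so a join with no added base is only one of the outcomes. Position 1 is the array's first base. The cut of site 2 lies after base 49 and that of site 9 after base 238. A join is called exact when its first lost base directly follows one cut and its last lost base directly precedes the other.

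Of the 10 most frequent clean inner joins, 5 ran exactly from cut to cut and 3 were exact at the left cut alone. The other 2 were exact at neither cut and stood beside stretches of inserted bases in the same allele. The sequences are shown because letters recurred from allele to allele, and are those of 4 of the 6 deletions that had a stretch in at least 90% of 25 or more alleles. The 2 not shown, bases 50 to 146 and 155 to 186, shared 4 and 2 bases by the same measure. Each line below gives a deletion by its first and last lost base and then the commonest of the inserted stretches nearest to it, in array orientation, 5′ to 3′. Only stretches of 4 or more inserted bases were considered, a definition chosen after the values were seen. Capitals mark the longest run of that stretch that was found in the nearest stretch of at least 80% of the alleles with the deletion and such a stretch.
176 to 217: CTCCATcg
76 to 104: TCTGCGT
159 to 192: CATAG
75 to 192: tGTGCGTACAGTCGCG
The deletion of bases 176 to 217, which joins sites 7 and 8, had CTCCATcg as its nearest stretch in 65 of 98 alleles, and the run in capitals in 96 of 98. In 78 of the 98 alleles the event that carried the nearest stretch replaced bases 224 to 265, and the stretch lay to the right of the join in 97, with 6 kept bases between them at the median. For bases 76 to 104, which join sites 3 and 4, the stretch lay to the left in 83 of 85 alleles, and 73 of 85 held the letters shown. The deletion of bases 159 to 192 had CATAG within its nearest stretch in 31 of 37 alleles, and as the whole of it in 5. That of bases 75 to 192 had the 15 bases in capitals in 22 of 26 alleles, and in all 26 the nearest stretch lay to the left with 2 kept bases between. The unedited array sequence was not among the sources used here, so these stretches were not matched to it. A member is called clean by its own listed event, whatever bases a nearby event inserted. Whether such a deletion and its nearest stretch were separate events or parts of the same change was not tested.

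Clean joins covered all 28 pairs of inner sites, unevenly. The pair of the outermost inner sites, 2 and 9, led with 542 joins (13.2% of members, interval 12.2 to 14.3%). Sites 7 and 9 followed with 435 joins (10.6%, 9.69 to 11.6%), and sites 3 and 9 with 279 (6.81%, 6.06 to 7.62%). The rarest pair was 4 and 5 with 32 joins (0.781%, 0.535 to 1.10%). Site 2 began 1438 joins (35.1%) and site 9 ended 1944 (47.4%). These 2 sites also had the most possible partners, since each can be joined with every other inner site on that side. Of the 3391 inner joins with inserted bases, 1173 began at site 2 and 1136 ended at site 9. Among the sites that could both start and end a join, site 3 was used as a start in 725 clean joins, site 7 in 584 and site 8 in 137. Site 7 can start a join with sites 8 and 9 only, and site 8 with site 9 only. Site 8 was an end in 674 clean joins and site 3, which only a start at site 2 can reach, in 78.

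Sorted by the number of repeat units between the joined sites, the counts did not fall steadily with distance. Joins of neighbouring sites, 1 unit apart, numbered 688 over 7 pairs (98.3 per pair). There were 943 joins 2 units apart over 6 pairs (157 per pair), 536 at 3 units (107 per pair), 545 at 4 units (136), 389 at 5 units (130), 455 at 6 units (228 per pair) and 542 at 7 units, where 1 pair exists. Within one distance the pairs varied widely. At 2 units the counts ran from 69 joins of sites 4 and 6 to the 435 of sites 7 and 9. Neighbouring pairs ran from 32 at sites 4 and 5 to 149 at sites 7 and 8, with 78 at sites 2 and 3, 142 at 3 and 4, 56 at 5 and 6, 94 at 6 and 7 and 137 at 8 and 9. At 3 units the leading pair was sites 2 and 5 (197 joins). At 4 units it was sites 5 and 9 (197), at 5 units sites 4 and 9 (197) and at 6 units sites 3 and 9 (279).

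Other losses in the allele differed with distance. Of alleles with a 1-unit join, 659 of 660 held another join, and 99.2% did with a 2-unit join. That share was 97.1% at 3 units, 82.0% at 4, 58.4% at 5 and 18.5% at 6 units. At 7 units only sites 1 and 10 are left, so no further join can be made. A longer join leaves fewer sites for another join at every distance, so this fall depends partly on the layout. The bases lost from the allele in all, less those inserted, had similar medians at most distances: the median was 162 bases for 1-unit joins, 160 for 2, 162 for 3, 160 for 4, 168 for 5, 164 for 6 and 188 for 7. The smallest net loss was 49 bases in an allele with a clean inner join, against 52 bases in one without. No listed allele lost less, whereas the median 1-unit join alone removed 32 bases. Most alleles with a 1-unit join thus had to hold a further loss to be as short as the listed alleles. Whether the listing sets a minimum loss is not known. Neighbouring sites made up 16.8% of all members (15.7 to 17.97%) but 6.57% of the 1598 members in alleles of at most 3 events (5.41 to 7.90%). The part that other losses play in the counts by distance was not tested.

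Member lengths ran from 24 to 223 bases, with a median of 90. The shortest was the loss of bases 212 to 235 between sites 8 and 9 and the longest the loss of bases 39 to 261 between sites 2 and 9, each in 1 allele with 1 UMI. In 34.6% of members (33.1 to 36.0%) the length was a whole number of 27-base units, and in a further 20.2% it was 1 base shorter. A surplus of 3 bases was next, in 284 joins (6.93%).

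Ends lay close to the cuts, and the left and right ends differed. The start directly followed a cut in 2722 of 4098 members (66.4%, 65.0 to 67.9%), whereas the end directly preceded one in 1678 (40.9%, 39.4 to 42.5%). Both ends were exact in 1372 members (33.5%, 32.0 to 34.9%). With each distinct deletion counted once, 31.1% of starts, 18.2% of ends and 3.37% of both were exact. The last share was bounded by this way of counting. Each of the 28 pairs has only 1 deletion exact at both cuts, and 27 of the 801 distinct deletions were of this kind. Starts displaced to the left, into the target, were found in 26.0% and to the right in 7.59%. Ends displaced to the right, into the PAM side, were found in 40.6% and to the left in 18.5%. The windows gave the directions unequal room. A start could lie up to 24 bases left of its cut but only 2 bases right of it. An end could lie up to 23 bases right of its cut but only 3 bases left of it. The difference between directions therefore depends partly on the rule. The commonest displaced end stopped 1 base short of the cut, in 703 members (17.2%), and the next ran 3 bases past it, in 435 (10.6%). Of all combinations, the exact start with an end 1 base short (670 joins) came after the exact join and before the exact start with an end 3 bases past the cut (259 joins). Both ends lay within 3 bases of the cuts in 73.7% of members (72.3 to 75.01%). How the allele caller placed a gap that can slide along identical bases is not known, and a slide would move both ends together.

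Exact shares and displaced ends varied between sites. At site 2, 70.4% of starts were exact (68.0 to 72.8%, n = 1438), at site 5 the share was 78.5% (74.2 to 82.3%, n = 418) and at site 8 it was 50.4% (41.7 to 59.0%, n = 137). At site 3, 118 of 725 starts lay 1 base to the left, at base 76. At site 7, 99 of 584 starts lay 9 bases to the left, at base 176, and at site 8, 23 of 137 lay 17 bases to the left. Among ends, site 9 had the highest exact share, 50.4% (48.1 to 52.6%, n = 1944), and the lowest were site 3 with 24.4% (15.3 to 35.4%, n = 78) and site 4 with 24.8% (19.997 to 30.2%, n = 294). At site 4 the commonest end lay 1 base past the cut, in 92 of 294 joins, against 73 exact ends. Site 7 had 66 of 438 ends 8 bases past its cut and site 8 had 107 of 674 ends 6 bases past it. Most of these displaced ends came from few recurrent deletions. Bases 176 to 217 supplied 98 of the 99 starts at base 176 and of the 107 ends at base 217, and bases 76 to 104 supplied 86 of the 118 starts at base 76 and of the 92 ends at base 104. Of the 66 ends at site 7, bases 159 to 192 supplied 37 and bases 75 to 192 supplied 26.

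Exact joins were frequent between some pairs and rare between others. Sites 5 and 7 had the highest share, 71 of 90 joins (78.9%, 69.0 to 86.8%), followed by sites 7 and 9 with 292 of 435 (67.1%, 62.5 to 71.5%) and sites 5 and 8 with 48 of 75 (64.0%, 52.1 to 74.8%). Sites 3 and 7 had 1 of 89. None of the 142 joins of sites 3 and 4 was exact. Taken as independent draws, they allow a share of up to 2.11% by the limit of 3 counts and 2.56% by the exact interval. They were only 27 distinct deletions, however, and bases 76 to 104 supplied 86 of the joins, so these limits are too narrow if copies of a deletion are not independent. Grouped by distance, 12.2% of 1-unit joins were exact (9.86 to 14.9%), 54.1% at 2 units (50.8 to 57.3%), 38.8% at 3, 41.7% at 4, 20.1% at 5, 21.5% at 6 and 30.8% at 7 units.

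The 4098 members were 801 distinct deletions, of which 480 were listed in 1 allele each and 74 in 10 or more. The 10 most frequent supplied 29.6% of members. First was the exact join of sites 7 and 9, bases 185 to 238, in 292 alleles with 464 UMIs. Second was the exact join of sites 2 and 9, bases 50 to 238, in 167 alleles with 378 UMIs. The exact join of sites 5 and 9, bases 131 to 238, had 125 alleles and 174 UMIs. A deletion of bases 50 to 241, which ends 3 bases past the cut of site 9, had 119 alleles and 350 UMIs. The deletion of bases 176 to 217 had 98 alleles and 191 UMIs, and that of bases 50 to 237, 1 base short of the cut of site 9, had 88 alleles and 192 UMIs. The remaining 4 were bases 76 to 104 (86 alleles, 182 UMIs), 77 to 238 (86 alleles, 109 UMIs), 185 to 237 (79 alleles, 126 UMIs) and 50 to 157 (71 alleles, 106 UMIs). The last was tied in alleles with bases 131 to 184 (71 alleles, 93 UMIs), an exact join of sites 5 and 7. Of these 10, 8 started exactly after a cut, and the exceptions were the 2 deletions shown above with their inserted stretches.

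A frequent deletion was combined with many different edits of the outer sites. The 167 alleles that lost bases 50 to 238 held 166 distinct combinations of edits at sites 1 and 10, and 161 of them had 3 events in all. Insertions at site 1 had 32 different sequences in 126 of these alleles, and insertions at site 10 had 40 in 139. The 292 alleles with bases 185 to 238 deleted held 266 distinct outer combinations. Alleles with the same deletion must differ elsewhere to be listed apart. Whether a deletion arose once and the outer edits followed, or arose repeatedly, was not tested.

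The recurrent deletions fell apart by the presence of long inserted stretches. A stretch of 4 or more inserted bases, in any other event of the allele, accompanied 98 of 98 deletions of bases 176 to 217 and 85 of 86 of bases 76 to 104. For the other 8 of the 10 most frequent deletions the share was between 4.23% (bases 50 to 157) and 14.8% (bases 50 to 237), and for the tied bases 131 to 184 it was 15.49%. Of the 74 deletions found in 10 or more alleles, 9 had such a stretch in at least 90% of their alleles and 63 in at most 30%, with 2 between. None of the 9 was exact at both cuts, 5 joined neighbouring sites, and together they were 349 members (8.52%). The 19 recurrent deletions that were exact at both cuts had shares of at most 30%. Over all members, the stretch was present in the allele for 13.8% of joins exact at both cuts (11.99 to 15.7%) and for 18.9% of the other joins with both ends within 3 bases (17.0 to 20.9%). It was present for 38.0% of joins with 1 end farther off (34.5 to 41.6%) and for 43.2% of those with both ends farther off (37.8 to 48.6%).

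Alleles with a long inserted stretch anywhere were 22.6% of those with a clean inner join (21.3 to 23.97%) and 25.7% of those without (24.8 to 26.6%). Among members, joins of neighbouring sites had the highest share. Of the 688 members 1 unit apart, 380 lay in an allele with a long inserted stretch (55.2%, 51.4 to 59.0%), against 17.7% at 2 units, 23.1% at 3, 19.6% at 4, 14.1% at 5, 8.13% at 6 and 10.5% at 7 units. The number of events moved with distance too, at a mean of 4.93 in alleles with a 1-unit join and 2.93 in those with a 7-unit join, and its part in these shares was not tested. Sites 3 and 4 had 117 of 142 such joins, sites 7 and 8 had 111 of 149 and sites 6 and 7 had 70 of 94. Sites 8 and 9 had 25 of 137, and sites 4 and 5 had 5 of 32. Few recurrent deletions weighed on the share of neighbouring joins: of the 380, bases 176 to 217 supplied 98 and bases 76 to 104 supplied 85. Without alleles that hold a stretch, 308 neighbouring joins were left (44 per pair), of which 112 joined sites 8 and 9 and 67 were exact (21.8%, 17.3 to 26.8%). At 2 units 776 were left, and 55.7% of these were exact (52.1 to 59.2%).

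Clean joins were set beside inner joins that carried added bases. Of the 7489 joins among sites 2 to 9, 4098 were clean (54.7%, 53.6 to 55.9%) and 3391 had inserted bases, 1125 of them a single base. With each distinct event counted once, 801 of 2409 were clean (33.3%, 31.4 to 35.2%). The comparisons of clean shares below count every listed join. The clean share was 47.6% among joins from site 1 to sites 2 to 9 (46.4 to 48.8%, n = 6468) and 52.4% among joins from sites 2 to 9 to site 10 (51.1 to 53.7%, n = 5407). By pair it was highest at sites 5 and 9 (76.7%, 71.0 to 81.7%) and sites 5 and 8 (72.8%, 63.2 to 81.1%). Lowest were sites 4 and 5 (19.6%, 13.8 to 26.6%) and sites 3 and 5, where 81 clean joins stood beside 271 with inserted bases (23.0%, 18.7 to 27.8%).

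Exact ends were counted in 3 comparable groups of joins as well. Both ends were exact in 33.5% of clean inner joins, in 28.4% of inner joins with inserted bases (26.9 to 29.9%), in 11.7% of clean joins from site 1 (10.6 to 12.9%) and in 24.8% of clean joins to site 10 (23.2 to 26.4%). The intervals did not overlap, but 1 library allowed no test of these differences. Set side by side at the same end site, clean inner joins ended exactly at site 9 in 50.4%, against 26.0% of clean joins from site 1 that ended there (22.2 to 29.98%, n = 516). At site 8 the shares were 34.9% for clean inner joins and 16.7% for clean joins from site 1, and at site 7 they were 30.8% and 15.51%. At sites 3, 4, 5 and 6 the intervals of these groups overlapped. Against inner joins with inserted bases, the order of exact ends varied by site. Clean inner joins had the higher share at site 9 (50.4% against 28.3%) and at site 5 (34.8% against 21.0%). They had the lower share at site 8 (34.9% against 50.8%) and at site 7 (30.8% against 41.2%). At sites 3, 4 and 6 the intervals of clean inner joins and inner joins with inserted bases overlapped. Among starts, clean inner joins were exact at site 2 in 70.4%, against 42.2% of clean joins from site 2 to site 10 (36.5 to 48.1%, n = 296). At the other start sites clean inner joins had the lower share or one with an overlapping interval. The shares were 52.7% for clean inner joins and 73.7% for clean joins to site 10 at site 3, 62.0% and 78.8% at site 4, 65.4% and 76.5% at site 6, and 50.4% and 65.9% at site 8. The intervals overlapped at site 5 (78.5% and 82.4%) and site 7 (72.6% and 71.0%). Starts of inner joins with inserted bases were less often exact than those of clean inner joins at sites 5 (32.9%), 6 (36.4%), 7 (46.5%) and 8 (28.2%). At start sites 2, 3 and 4 the intervals of these 2 groups overlapped.

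Sites 1 and 10 had nearly always been edited too. Site 1 was within another join in 1424 of the 3804 alleles with a clean inner join (37.4%, 35.9 to 39.0%), edited on its own in 2268 (59.6%, 58.0 to 61.2%) and untouched in 112 (2.94%). Site 10 was within another join in 976 (25.7%, 24.3 to 27.1%), edited on its own in 2715 (71.4%, 69.9 to 72.8%) and untouched in 113 (2.97%). An inner join that starts at site 2 leaves site 1 no partner on that side, so these shares depend partly on the rule. Where a site lay outside every join, it was altered about as often with a clean inner join as without one. For site 1 that share was 95.3% in alleles with a clean inner join (n = 2380), against 95.4% in alleles without (n = 3635). For site 10 it was 96.0% in both (n = 2828 with and 4248 without).

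The usual edit at an outer site was a short insertion at the cut. An insertion alone altered site 1 in 1669 alleles with a clean inner join and site 10 in 2214, and 91.2% and 91.0% of these lay exactly at the cut. Of alleles in which the site was outside joins, 70.1% had an insertion at site 1 (68.2 to 72.0%) and 78.3% at site 10 (76.7 to 79.8%), against 71.7% (70.2 to 73.2%) and 76.1% (74.8 to 77.4%) in alleles without a clean inner join. Site 1 most often received G (21.6% of insertions), A (19.8%) and GG (9.65%), and site 10 received G (14.3%), A (13.1%) and GG (11.7%). A single base was inserted in 54.4% of insertions at site 1 (52.0 to 56.8%) and in 38.8% at site 10 (36.8 to 40.9%). The purines A and G were 80.4% of all bases inserted at site 1 and 82.1% at site 10 in alleles with a clean inner join, against 79.5% and 82.4% in those without.

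The join of sites 2 and 9 shows the simplest of these arrays, an inner block lost in one piece with a separate edit on each side. Both outer sites were edited on their own in 509 of 542 such alleles (93.9%, 91.6 to 95.8%), and 315 had an insertion at each. A further 94 had a deletion at site 1 and an insertion at site 10, and 49 had the reverse. Of the 542 alleles, 504 consisted of 3 events.

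Other alleles combined an inner join with larger losses. Of the 3804 alleles, 1477 had 3 events and 1204 had 4. The clean inner join was the only join in 1196 (31.4%, 29.97 to 32.9%). Another join from site 1 was present in 1424 and one to site 10 in 976. In 26 alleles, with 53 UMIs, the clean inner join was the only event listed and both outer sites were untouched. Their deletions ran from 54 to 223 bases and 8 of them began at base 50. The one with the most UMIs lost bases 50 to 249 and had 10.

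Alleles with a clean inner join were carried by few UMIs, but low support was not particular to them. Alleles that held an inner join with inserted bases had a mean of 1.56 UMIs, and 72.7% of them had a single UMI (71.1 to 74.3%). The means were 2.67 with a clean join from site 1 and 2.32 with one to site 10. These groups can share alleles. The median was 1 UMI with and without a clean inner join. The 6658 UMIs of alleles with a clean inner join were 20.6% of all UMIs, against 29.8% of all alleles (29.0 to 30.6%). No interval is given for the share of UMIs, because UMIs of the same allele are not independent draws. The mean was 1.75 UMIs per allele in the 3804 alleles with a clean inner join. It was 2.87 in the 8963 without, and the highest values were 38 and 1589. The 405 alleles of 1 event without a clean inner join averaged 15.4 UMIs. A single UMI supported 68.0% of alleles with a clean inner join (66.5 to 69.5%) and 61.1% of those without (60.0 to 62.1%). The number of events moved with this difference, at a median of 4 events in alleles with a clean inner join and 3 in those without. Its part in the difference was not tested. At equal numbers of events the order was not uniform. Among alleles of 1 event, 17 of 26 had a single UMI where a clean inner join was present (44.3 to 82.8%) and 162 of 405 where it was not (35.2 to 44.95%). At 2 events the shares were 65.9% (55.03 to 75.7%, n = 88) and 49.3% (47.5 to 51.2%, n = 2815). Alleles of 3 events had the opposite order, with 56.9% at a single UMI where a clean inner join was present (54.3 to 59.4%, n = 1477) and 61.4% where it was not (59.7 to 63.1%, n = 3134). At 4 events the shares were 71.4% (68.8 to 74.0%) and 74.0% (71.7 to 76.2%), and at 5 events 79.2% and 79.0%. By distance, alleles with a 7-unit join had 2.31 UMIs on average and those with shorter ones between 1.58 and 1.73.

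The 10 alleles with the most UMIs held 229 UMIs, 3.44% of the UMIs of alleles with a clean inner join. The largest, with 38 UMIs, consisted of 5 clean deletions: bases 18 to 36, 50 to 131, 151 to 170, 185 to 186 and 212 to 267. The second, with 35 UMIs, held both deletions shown above with their stretches, 76 to 104 and 176 to 217, and 4 deletions with inserted bases. In the third (24 UMIs) the inner join removed bases 35 to 166 and in the fourth (23 UMIs) bases 60 to 243. A pair of alleles had 22 UMIs: one joined sites 7 and 9 exactly after a loss of bases 23 to 156 and carried GGG at site 10, and the other carried GG at site 1 and lost bases 50 to 132 and 158 to 265. The seventh (17 UMIs) had A inserted at site 1 and lost bases 50 to 238. Another 3 alleles had 16 UMIs. The first of them carried AA at site 1 and G at site 10 around a loss of bases 50 to 241, the next lost bases 50 to 214 and the last bases 98 to 240. In 5 of these 10 alleles the join began at base 50, directly after the cut of site 2.

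The limits of the rule lay at the windows and at the absence of inserted bases. Members that reached the first window by a single base numbered 68 and those that reached the last window by a single base 9, with 124 and 13 UMIs in their alleles. Clean deletions that touched 1 inner window and missed the next by a single base numbered 2 on the left and 15 on the right. Many more inner joins missed the rule by 1 inserted base, 1125 in 1109 alleles with 1651 UMIs.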

How the data were processed

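Array RNA of 1 liver lobe was extracted with a Qiagen RNeasy kit, copied with a UMI primer, amplified by nested PCR and sequenced on an Illumina NextSeq, per the labels and the design text. Read depth is unknown, so UMIs set the precision. The authors deposited 2 lists without a header: the edits of each allele (deletions, insertions, deletions with inserted bases, substitutions) and, in the same order, its 12-base UMIs. Neither holds counts or normalized values. Of the processing, the sources used here name only the genome build, mm10, per the submitters' processing notes, and no caller or filter. No array sequence was used. The layout of targets and cuts is general knowledge of the array.

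Events were read with Python 3.11.15, numpy 2.4.6 and scipy 1.17.1 and assigned to sites by their overlap with the cut windows, and UMIs were counted per allele. The reading of sites, offsets and outer states was checked on simulated alleles. These were built with the same layout of cuts, so the layout itself was not tested. Shares have exact (Clopper-Pearson) intervals, and PCR copies are not independent, so these cover counting error only. The 28 pairs, the 10 most frequent deletions, the 10 alleles with the most UMIs and the extremes of length were named by rule, and the long inserted stretches, the deletions shown with them and the alleles with 1 event were chosen after their values were seen. The members and lists were chosen with earlier results of these data known. Samples were grouped by stage mark and lobe, and of the 2 samples in the group 1 was analysed. Alternatives were a minimum of UMIs, weighting by UMIs, counting each deletion once, the whole target as window, fewer events, leaving out the largest allele and leaving out alleles with a long stretch.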

Additional observations from a re-analysis of the deposited data

How the results depend on the processing

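The 10 results were recomputed under 8 alternatives, which gave 67 values, of which 23 stayed within the reported interval (within 1.5 times for the count of joins) and 44 did not. No paired analysis was possible because 1 library was analysed. Leaving out the alleles with a long inserted stretch was chosen after seeing the data. The 4098 clean inner joins became 1294 in alleles of 2 or more UMIs, 605 at 3 or more, 1598 in alleles of at most 3 events, 7123 weighted by UMIs and 801 with each deletion counted once, fewer or more by construction. With at least 2 and at least 3 UMIs, 25.9% and 23.5% of alleles held a clean inner join, 58.6% and 62.3% of inner joins were clean, 28.8% and 26.4% were exact at both cuts, 35.6% and 32.9% at the right cut, and site 10 was edited alone in 69.5% and 67.8%; at 3 UMIs 63.8% were exact at the left cut. Weighted by UMIs, the share with a clean inner join was 20.6%, clean 57.7%, exact at both cuts 30.1%, exact at the right cut 36.7% and site 10 edited alone 69.4%. With each distinct deletion counted once, 33.3% were clean, 21.0% joined neighbouring sites, 3.37% were exact at both cuts, 31.1% at the left and 18.2% at the right cut. The share exact at both cuts was bounded there, since each pair has only 1 such deletion. With the whole target as window, 52.7% were clean, 19.7% joined neighbours, and sites 1 and 10 were edited alone in 54.7% and 68.9%. In alleles of at most 3 events, 20.03% held a clean inner join, 61.7% were clean, 6.57% joined neighbours, 72.2% were exact at the left cut, sites 1 and 10 were edited alone in 53.4% and 69.7%, and 57.5% of alleles had 1 UMI. Without alleles that hold a long stretch, 30.7% of alleles held a clean inner join, 67.0% of inner joins were clean, 9.71% joined neighbours, 37.3%, 72.8% and 45.6% were exact at both, the left and the right cut, and site 10 was edited alone in 75.7%. Where an alternative did not itself set the number counted, the cause of a shift was not tested. Leaving out the largest allele moved none of the 4 results it was run on beyond its interval. Each of these results counts an allele or a join once, so removing 1 allele could not have moved it that far. These 4 values are among the 23.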

Other observations

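At least 2 clean inner joins were held by 289 alleles (7.60% of the 3804, 6.77 to 8.49%), of which 5 held 3. In 215 of the 289 a second join started at the site directly after the end of the one before it. Few inner sites remain beside a first join, and how often their layout alone would give this was not worked out. The commonest combination joined sites 2 and 6 and sites 7 and 9, in 35 alleles, and in 8 of these the losses were bases 50 to 157 and 185 to 238, so that both joins were exact. Sites 2 and 5 with sites 6 and 9 were joined in 16 alleles. Of the 289 alleles, 216 had 1 UMI (74.7%, 69.3 to 79.6%).

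Inner targets outside every join were mostly altered as well in alleles with a clean inner join. The share was 90.4% at site 2 (88.1 to 92.3%, n = 778), against 90.4% in alleles without a clean inner join (89.0 to 91.6%, n = 1983). The lowest shares in alleles with a clean inner join were 79.9% at site 4 (75.03 to 84.3%, n = 309) and 81.9% at site 9 (78.9 to 84.6%, n = 740). In alleles without, they were 82.3% at site 4 (79.1 to 85.2%, n = 637) and 83.3% at site 9 (81.7 to 84.9%, n = 2233).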
